A study of Homo sapiens with 12 samples.

Results

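The genes described here encode the aminoacyl-tRNA synthetases, and 36 of them were followed: 20 whose enzymes work in the cytosol and 16, named with a final 2, whose enzymes work in mitochondria. A gene was included where the name given for a row of the count matrix equalled one of 36 listed symbols. All 36 were found among the 58307 rows that name a gene, and all 36 passed the filter on low counts in every comparison. The symbols are the older ones of the deposited annotation (QARS is now QARS1, for example). GARS and KARS were counted as cytosolic, although each makes both a cytosolic and a mitochondrial enzyme from 1 gene.

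Each synthetase joins an amino acid to the tRNAs that carry it, and ribosomes can use a codon only once its tRNA has been charged in this way. Cytosolic and mitochondrial ribosomes draw on separate tRNA pools, so most amino acids have a second, mitochondrial synthetase that is also encoded in the nucleus. Several cytosolic enzymes sit together in the multisynthetase complex, held by the scaffold proteins AIMP1, AIMP2 and EEF1E1. Uncharged tRNA activates the kinase GCN2 and raises translation of the transcription factor ATF4, whose known targets include amino acid transporters, amino acid synthesis enzymes and several cytosolic synthetases. Rapamycin inhibits mTORC1, a kinase that responds to amino acids and promotes protein synthesis, and ATF4 translation is known to depend partly on mTORC1 as well.

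PolyA-enriched RNA was sequenced from A375 and SK-MEL-28, which are established lines of human melanoma cells, each given either etoposide, an inhibitor of topoisomerase II, or etoposide with rapamycin. The 4 groups (A375 Etoposide, A375 Etoposide + Rapamycin, SK-MEL-28 Etoposide, SK-MEL-28 Etoposide + Rapamycin) had 3 libraries each, 12 in all, and every library carried etoposide, so no untreated cells enter any comparison. Doses and times of the RNA-seq treatment and passage numbers are not given in the sources used here, and each line is a single model. The study describes the libraries of a group as biological replicates, while the labels do not tie them to separate cultures, so p-values measure the spread between these libraries.

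Total counts ran from 28189501 to 32499337 per library. Of the melanocyte lineage markers, SOX10 lay between 166 and 579 CPM (counts scaled to the size of the library), S100B between 56.7 and 106 and MITF between 12.1 and 29.7. PMEL, MLANA, TYR, TYRP1 and DCT were at or near 0, none above 2.99 CPM. The 9 leukocyte, epithelial and endothelial markers together gave 8.6 to 19.7 CPM per library. Most of it was KRT14 (4.84 to 9.98), PECAM1 (1.27 to 6.09) and VWF (1.74 to 3.23). CD3E, KRT5, EPCAM and CDH1 did not reach 1 CPM in any library. The sum moved with the groups: it was 13.8 to 17 CPM with rapamycin against 16.2 to 19.7 with etoposide in A375, with overlap, and 8.6 to 10.4 against 12 to 13.1 in SK-MEL-28, without overlap, and under etoposide it was lower in SK-MEL-28 than in A375. The part of these markers in the results was not tested. In bulk RNA, fewer cells that express a gene and less of its RNA per cell cannot be told apart.

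The promoters of several cytosolic synthetases carry the element through which ATF4 and its C/EBP partners are known to bind DNA, and these sites are shown because they set a subset of the genes apart by sequence alone. The core TGATGNAA (N is any base) was searched on both strands, where it reads TTNCATCA on the other strand, in RefSeq windows of 300 bases, from 250 before to 50 after the start (GRCh38.p14). RefSeq windows were found for 30 of the 36 genes; DARS, LARS, VARS, YARS, AARS2 and VARS2 were not matched. The core occurred in 6 of 16 cytosolic windows (37.5%), in 1 of 14 mitochondrial windows (7.14%) and in 1003 of all 27305 windows (3.67%). The 7 matches are given below 5′ to 3′ on the gene's own strand, with 10 bases on either side and the match in capitals.
AARS: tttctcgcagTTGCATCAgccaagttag
CARS: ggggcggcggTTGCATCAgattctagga
IARS: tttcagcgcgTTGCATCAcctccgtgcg
MARS: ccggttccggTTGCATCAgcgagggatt
NARS: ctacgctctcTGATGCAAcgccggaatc
TARS: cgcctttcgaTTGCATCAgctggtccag
YARS2: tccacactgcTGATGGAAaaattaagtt

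All 6 cytosolic matches held the same 8 bases, TTGCATCA or its complement strand TGATGCAA, whereas the YARS2 match differed at the free base. The windows lie at chr16:70289676-70289703 (AARS, minus strand), chr11:3057408-3057435 (CARS, minus), chr9:92293693-92293720 (IARS, minus), chr12:57488054-57488081 (MARS, plus), chr18:57621805-57621832 (NARS, minus), chr5:33440957-33440984 (TARS, plus) and chr12:32756077-32756104 (YARS2, minus). Counted from the RefSeq start of each window as 0, the match began at -187 in AARS, -2 in CARS, -13 in IARS, -4 in MARS, 14 in NARS, 2 in TARS and -197 in YARS2. With only the bases before that start searched, the shares were 12.5% of cytosolic, 7.14% of mitochondrial and 3.19% of all windows. These starts differ from those of GENCODE, which gave the gene positions in this text. By GENCODE positions all 6 cytosolic matches lie within the annotated genes, and the MARS gene begins at chr12:57475445. A match is a description of letters, not a measured binding site.

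In A375 cells, adding rapamycin to etoposide lowered 6 of the 20 cytosolic synthetase genes (WARS, RARS, NARS, TARS, EPRS and IARS) and raised 1 (QARS). Among the 16 mitochondrial genes 2 fell (NARS2 and IARS2) and 2 rose (AARS2 and SARS2). A call means an adjusted p under 0.05 in the quasi-likelihood test of edgeR, Benjamini-Hochberg adjusted across the whole set tested; the same holds for every adjusted p below. The called share was 35% of the cytosolic and 25% of the mitochondrial genes, against 28.1% of all 18844 genes tested. Read by direction, 30% of the cytosolic genes fell against 13.8% of all genes, and 5% rose against 14.3%; of the mitochondrial genes 12.5% moved each way. None of the 36 also passed a change of 1.5-fold, as 5.89% of all genes did, and the 95% interval of every one of them lay within 1.5-fold. The median log2 fold change was -0.10 over the cytosolic, 0.022 over the mitochondrial and -0.0051 over all genes.

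**Figure D1:**
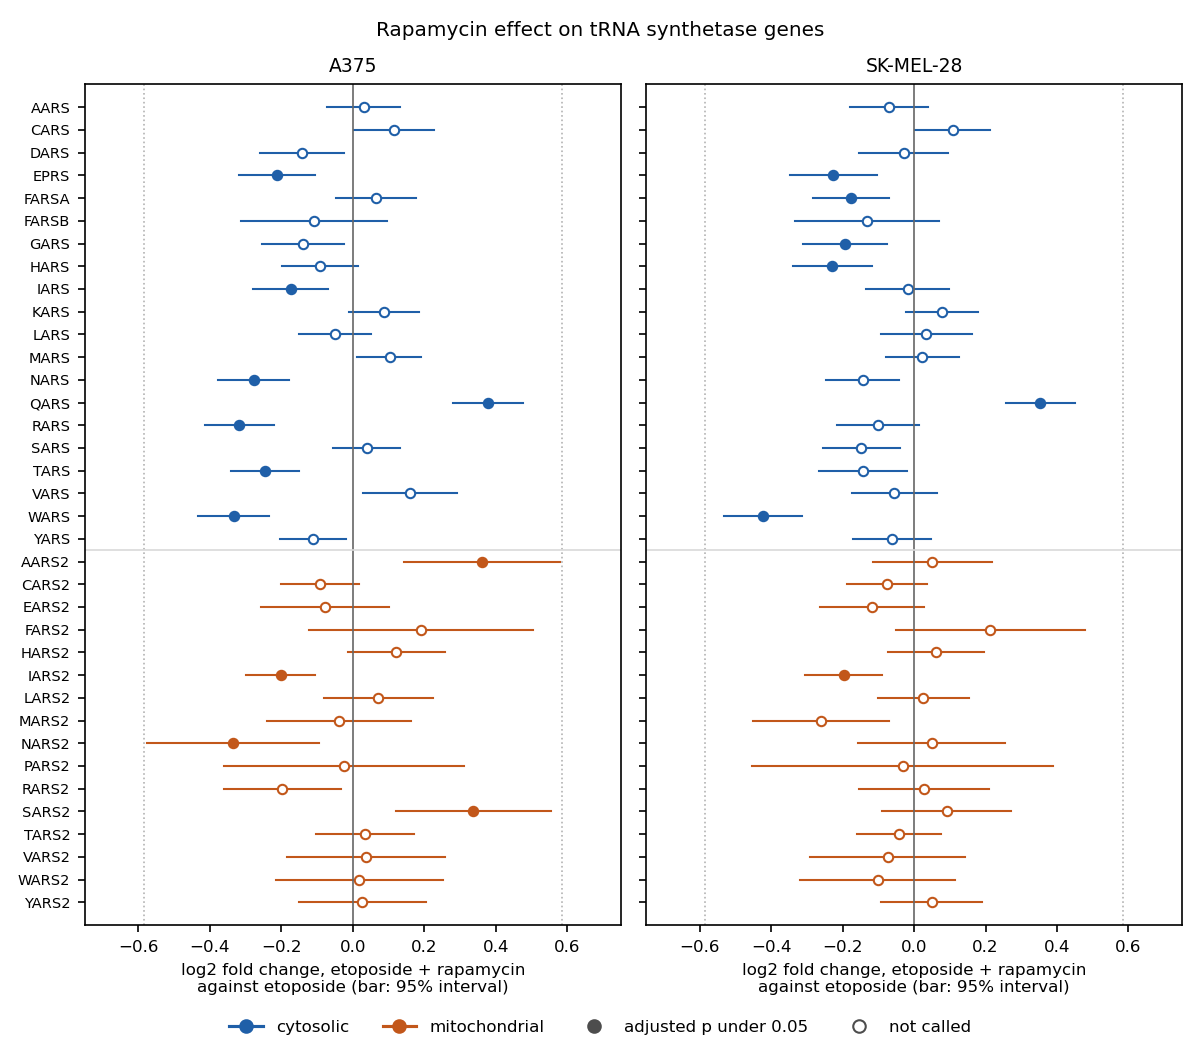
Log2 fold change of each synthetase gene with rapamycin added to etoposide (x axis; points, with bars for the 95% interval), cytosolic genes above and mitochondrial genes below the grey line, in A375 (left) and SK-MEL-28 (right). Filled points passed the test, dotted lines mark a 1.5-fold change, and QARS lies to the right and WARS to the left of 0 in both panels.

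QARS, the glutaminyl-tRNA synthetase of the multisynthetase complex (chr3:49095932-49105130, GRCh38, minus strand), was the called cytosolic gene with the opposite direction to the rest. Its level was 263, 269.8 and 253 CPM in the A375 libraries given etoposide alone and 332, 348 and 337 CPM in those also given rapamycin. Each rapamycin library stood above each etoposide library. Its log2 fold change was 0.38 (SE 0.045, adjusted p = 7.345e-05).

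WARS, the tryptophanyl-tRNA synthetase, which is also known as an interferon-induced gene (chr14:100333790-100376805, minus strand), fell furthest among the cytosolic genes. It had 251, 247 and 238 CPM with etoposide and 201, 192 and 188 CPM with rapamycin added, without overlap, and the log2 fold change was -0.33 (SE 0.046, adjusted p = 0.000204).

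RARS, the arginyl-tRNA synthetase of the multisynthetase complex (chr5:168486451-168519301, plus strand), went from 167, 165 and 175 CPM to 133, 136 and 136 CPM. The rapamycin libraries were all below the etoposide libraries and close to one another. This was a log2 fold change of -0.32 (SE 0.044, adjusted p = 0.0002285).

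NARS, the asparaginyl-tRNA synthetase (chr18:57600656-57622213, minus strand), had 155, 162 and 164 CPM with etoposide and 127, 135 and 133 CPM with rapamycin added, again without overlap. Its log2 fold change was -0.28 (SE 0.046, adjusted p = 0.0007616). TARS, the threonine enzyme, had 186, 189 and 192 CPM against 165, 157 and 155 CPM, and IARS, the isoleucine enzyme of the multisynthetase complex, had 196, 189.5 and 196 CPM against 171, 180.2 and 163 CPM. Both were lower in every rapamycin library. The log2 fold changes of TARS (-0.25, adjusted p = 0.001288), EPRS, a fused enzyme for glutamate and proline (-0.21, adjusted p = 0.00611), and IARS (-0.17, adjusted p = 0.01723) were smaller in size than that of NARS.

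**Figure D2:**
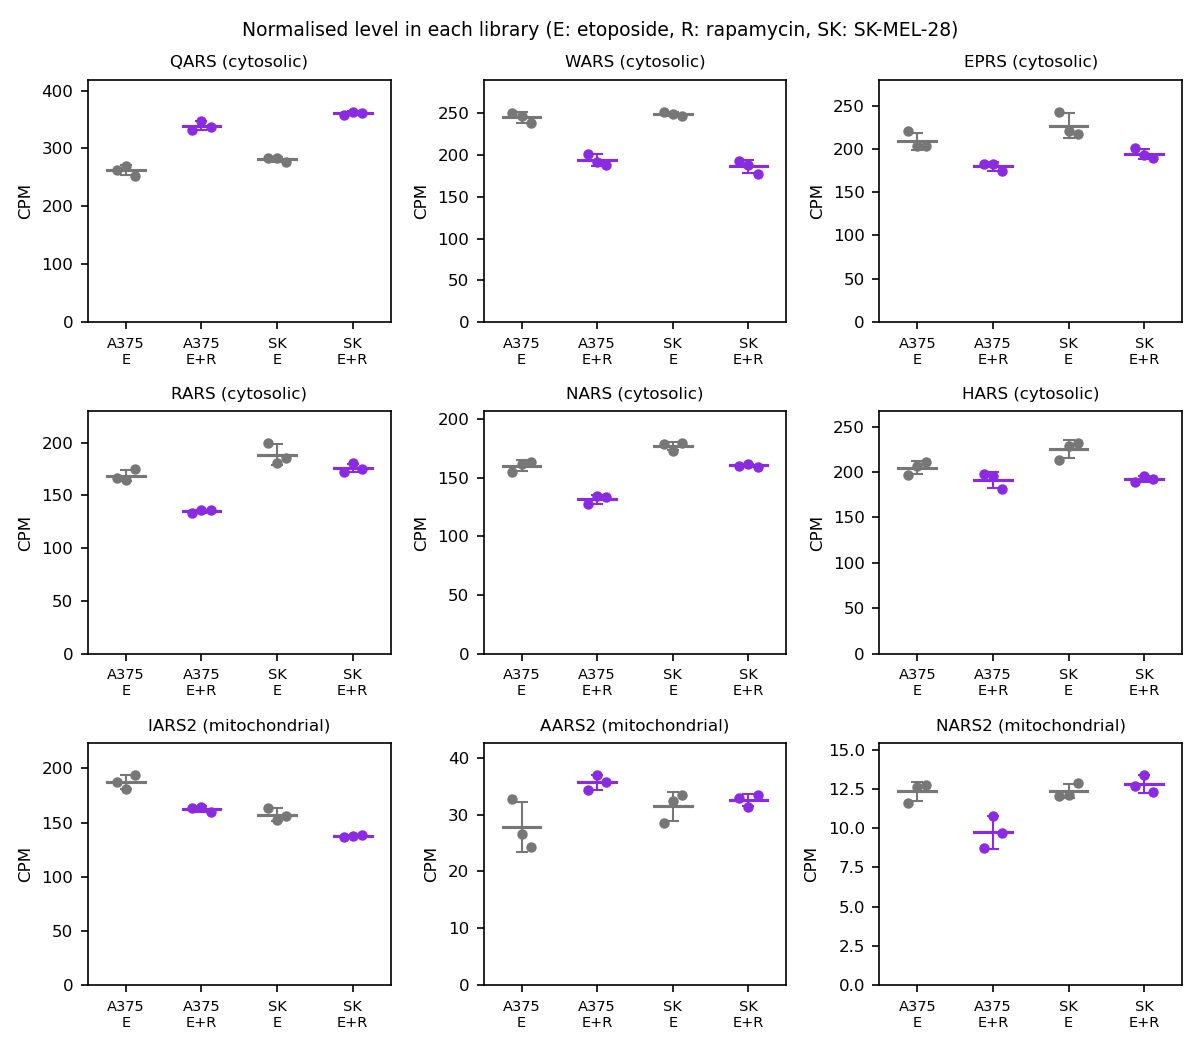
CPM of 9 synthetase genes (y axis, from 0) in the 3 libraries of each group (x axis; grey etoposide, purple etoposide + rapamycin), with the mean as a line and the SD as a bar. QARS is higher and WARS, EPRS and IARS2 are lower in the rapamycin libraries of both lines, while the RARS and NARS2 groups lie further apart in A375 than in SK-MEL-28.

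Among the mitochondrial genes, AARS2, the alanine enzyme (chr6:44298731-44313347, minus strand), had 32.8, 26.5 and 24.2 CPM with etoposide and 34.4, 37.0 and 35.7 CPM with rapamycin added. The groups did not overlap, although the etoposide libraries were spread widely, and the test gave a log2 fold change of 0.36 (SE 0.10, adjusted p = 0.01721). SARS2, the serine enzyme (chr19:38915266-38930763, minus strand), had 32.5, 29.7 and 25.9 CPM with etoposide and 32.3, 40.0 and 38.7 CPM with rapamycin added. The lowest rapamycin library lay just under the highest etoposide library, so these groups overlapped. The fitted log2 fold change was 0.34 (SE 0.10, adjusted p = 0.02338).

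NARS2, the mitochondrial asparagine enzyme (chr11:78435620-78575194, minus strand), had 11.6, 12.6 and 12.8 CPM with etoposide and 8.71, 10.8 and 9.72 CPM with rapamycin added, without overlap at a low level (log2 fold change -0.34, SE 0.11, adjusted p = 0.03972). IARS2, the mitochondrial isoleucine enzyme (chr1:220094132-220148041, plus strand), had higher CPM, with 187, 181 and 194 CPM with etoposide and 163, 165 and 159.9 CPM with rapamycin added, again without overlap (log2 fold change -0.20, SE 0.044, adjusted p = 0.004786).

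The calls of AARS2, SARS2 and NARS2 were lost without single libraries: AARS2 and SARS2 without Etoposide + Rapamycin replicate 2 or 3 or Etoposide replicate 2 or 3, and NARS2 without Etoposide + Rapamycin replicate 1 or 3 or Etoposide replicate 2 or 3. The count of mitochondrial genes called higher was 0 wherever AARS2 and SARS2 were lost. That of those called lower was 1 wherever NARS2 was lost. IARS was lost without Etoposide + Rapamycin replicate 1 or 3 or Etoposide replicate 3 (adjusted p = 0.06612, 0.08525 and 0.05833), and VARS was called higher as well without Etoposide replicate 2, which made 2 cytosolic genes higher.

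The remaining genes of A375 did not pass the test. The 13 cytosolic genes without a call ran from -0.14 (DARS, aspartate) to 0.16 (VARS, valine), and 13 of the 20 cytosolic genes had an unadjusted p under 0.05. The 12 mitochondrial genes without a call ran from -0.20 (RARS2, arginine) to 0.19 (FARS2, phenylalanine). The mitochondrial genes are the less abundant class and were measured less precisely: the median standard error of the log2 fold change was 0.088, against 0.047 for the cytosolic genes. The etoposide and rapamycin libraries did not overlap in 14 of 20 cytosolic genes (70%) and 5 of 16 mitochondrial genes (31.2%), against 42.6% of all genes.

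In SK-MEL-28 cells, rapamycin lowered 5 of the 20 cytosolic genes (WARS, HARS, EPRS, GARS and FARSA) and raised QARS, and of the 16 mitochondrial genes only IARS2 passed the test, with a lower level. The called share was 30% of the cytosolic and 6.2% of the mitochondrial genes, against 19% of all 18897 genes tested. By direction, 25% of the cytosolic genes fell against 10.1% of all genes, and 5% rose against 8.83%. None of the 36 also passed 1.5-fold, against 4.99% of all genes, and again every 95% interval lay within 1.5-fold. The medians were -0.086 over the cytosolic, -0.0032 over the mitochondrial and 0.0053 over all genes. The summed markers of other cell types were lower with rapamycin in this line without overlap, whereas the A375 groups overlapped, as given above.

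QARS had 284, 284 and 277 CPM with etoposide and 357, 364 and 361 CPM with rapamycin added in SK-MEL-28. The libraries of each group were within a few percent of one another and the groups were far apart. The log2 fold change was 0.35 (SE 0.044, adjusted p = 0.0001235). WARS had 252, 249 and 246 CPM with etoposide and 193, 188 and 178 CPM with rapamycin added, without overlap. Its log2 fold change was -0.42 (SE 0.050, adjusted p = 8.053e-05), the largest in size among the 36 genes in this line.

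HARS, the histidyl-tRNA synthetase (chr5:140673035-140691537, minus strand), had 214, 229 and 232 CPM with etoposide and 189, 196 and 193 CPM with rapamycin added. All rapamycin libraries were lower, by a log2 fold change of -0.23 (SE 0.051, adjusted p = 0.007362). HARS starts head to head with its mitochondrial counterpart HARS2, and the annotated genes overlap by 108 bases. HARS2 did not pass the test in either line, standing at 0.12 (A375) and 0.062 (SK-MEL-28) on the log2 scale.

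EPRS had 243, 220.2 and 217 CPM with etoposide and 201, 193 and 189 CPM with rapamycin added, and in A375 220.4, 204 and 203 against 183, 183 and 174 CPM. In neither line did the groups overlap. In SK-MEL-28 the log2 fold change was -0.23 (SE 0.056, adjusted p = 0.0132). IARS2 had 164, 152 and 156 CPM with etoposide and 137, 137 and 138 CPM with rapamycin added, without overlap (log2 fold change -0.20, SE 0.050, adjusted p = 0.0147). EPRS and IARS2 both lie on chromosome 1, on opposite strands and 47601 bases apart. GARS (glycine, -0.19, adjusted p = 0.02404) and FARSA, the catalytic subunit for phenylalanine (-0.18, adjusted p = 0.02298), had smaller log2 fold changes.

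In SK-MEL-28 the calls of GARS, FARSA, EPRS, HARS and IARS2 each depended on single libraries. GARS was lost without Etoposide + Rapamycin replicate 1 or 3 or Etoposide replicate 1 or 2, and FARSA without Etoposide + Rapamycin replicate 2 or 3 or Etoposide replicate 2 or 3. EPRS (adjusted p = 0.0616) and IARS2 (0.05145) were lost without Etoposide + Rapamycin replicate 3, and HARS (0.0514) without Etoposide replicate 3. The count of cytosolic genes called lower was 2 without Etoposide + Rapamycin replicate 3 and 3 without Etoposide replicate 2 or 3, and that of mitochondrial genes was 0 without Etoposide + Rapamycin replicate 3.

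The 14 cytosolic genes without a call in SK-MEL-28 ran from -0.15 (SARS, serine) to 0.11 (CARS, cysteine), and the 15 mitochondrial genes from -0.26 (MARS2, methionine) to 0.21 (FARS2). SARS, NARS and MARS2 had adjusted p values just past the threshold, 0.05527, 0.05039 and 0.05496. Groups did not overlap in 12 cytosolic genes (60%) and 4 mitochondrial genes (25%), against 35.9% of all genes. The median standard errors were 0.051 for the cytosolic and 0.08 for the mitochondrial genes.

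Across both lines, 4 genes were called in the same direction: WARS, EPRS and IARS2 lower and QARS higher. Calls were made in either line for 14 genes, 10 cytosolic and 4 mitochondrial, and no gene was called in opposite directions. These 4 genes were 11.1% of the 36, against 10.8% of the 18140 genes tested in both lines, and calls in at least 1 line were made for 37.2% of all genes, so 4 and 14 of 36 are near the shares of all genes; opposite calls were made for 0.436% of all genes. The 22 genes called in neither line were AARS, CARS, DARS, FARSB, KARS, LARS, MARS, SARS, VARS and YARS, and all mitochondrial genes other than AARS2, IARS2, NARS2 and SARS2.

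Among the 10 cytosolic genes called in neither line, the log2 fold changes in A375 and SK-MEL-28 had the same sign for CARS (0.11 and 0.11), KARS (0.087 and 0.078) and MARS (0.10 and 0.024), which were above 0, and for DARS (-0.14 and -0.029), FARSB (-0.11 and -0.13) and YARS (-0.11 and -0.061), which were below it. For AARS (0.030 and -0.070), LARS (-0.051 and 0.034), SARS (0.038 and -0.15) and VARS (0.16 and -0.056) the signs differed. None of these values passed the test, and their direction is not established.

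Of the 12 mitochondrial genes called in neither line, FARS2 (0.19 in A375 and 0.21 in the other line) and RARS2 (-0.20 and 0.027) had values among the largest in size, and MARS2 stood at -0.039 and -0.26. The remaining 9 were CARS2 (-0.093 and -0.076), EARS2 (-0.078 and -0.12), HARS2, LARS2 (0.071 and 0.026), PARS2 (-0.025 and -0.032), TARS2 (0.035 and -0.043), VARS2 (0.036 and -0.073), WARS2 (0.018 and -0.10) and YARS2 (0.026 and 0.049). PARS2, the proline enzyme, was the least precise, with between 4.96 and 8.20 CPM in single libraries and standard errors of 0.155 and 0.195.

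A separate test asked whether the response to rapamycin differed between the lines. Of the 36 genes 0 passed it in edgeR's quasi-likelihood test, against 5.62% of all 20101 genes (2.66% with a higher and 2.97% with a lower value in SK-MEL-28). An unadjusted p under 0.05 was found for 9 of them, and DESeq2 called 3 (FARSA, RARS and SARS). The smallest adjusted p values belonged to RARS, at -0.32 (A375) and -0.10 (SK-MEL-28; difference 0.22, SE 0.065, adjusted p = 0.05496), and FARSA, at 0.065 and -0.18 (difference -0.23, SE 0.069, adjusted p = 0.0577). The 95% interval of the difference lay within 1.5-fold for 35 of the 36 genes, the exception being NARS2 (difference 0.39, SE 0.14, adjusted p = 0.1083). RARS was called in A375 only and FARSA in SK-MEL-28 only, which alone does not show that the lines differed in either gene. The edgeR test of the difference called neither, whereas DESeq2 called both (adjusted p = 0.01876 for RARS and 0.004771 for FARSA), so this result depended on the method. Without SK-MEL-28 Etoposide replicate 1, both also passed the edgeR test (adjusted p = 0.01802 for RARS and 0.03161 for FARSA). AARS2 passed it without A375 Etoposide replicate 1 (0.021).

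Comparing the enzymes for the same amino acid gave 17 pairs, with EPRS set beside EARS2 and PARS2 and both FARSA and FARSB beside FARS2. The cytosolic gene had the lower log2 fold change in 12 of the 17 pairs in each line, and in 11 pairs in both lines. The median of the pairwise differences was -0.134 (A375) and -0.121 (SK-MEL-28). WARS and WARS2 were furthest apart in A375, at -0.33 against 0.018, and FARSA and FARS2 in SK-MEL-28, at -0.18 against 0.21. IARS with IARS2 and NARS with NARS2 were both called lower in A375, and no pair was called on both sides in SK-MEL-28. CARS, IARS, MARS and VARS had higher values than their mitochondrial counterparts in both lines. These are counts over genes of the same libraries and carry no p-value.

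**Figure D3:**
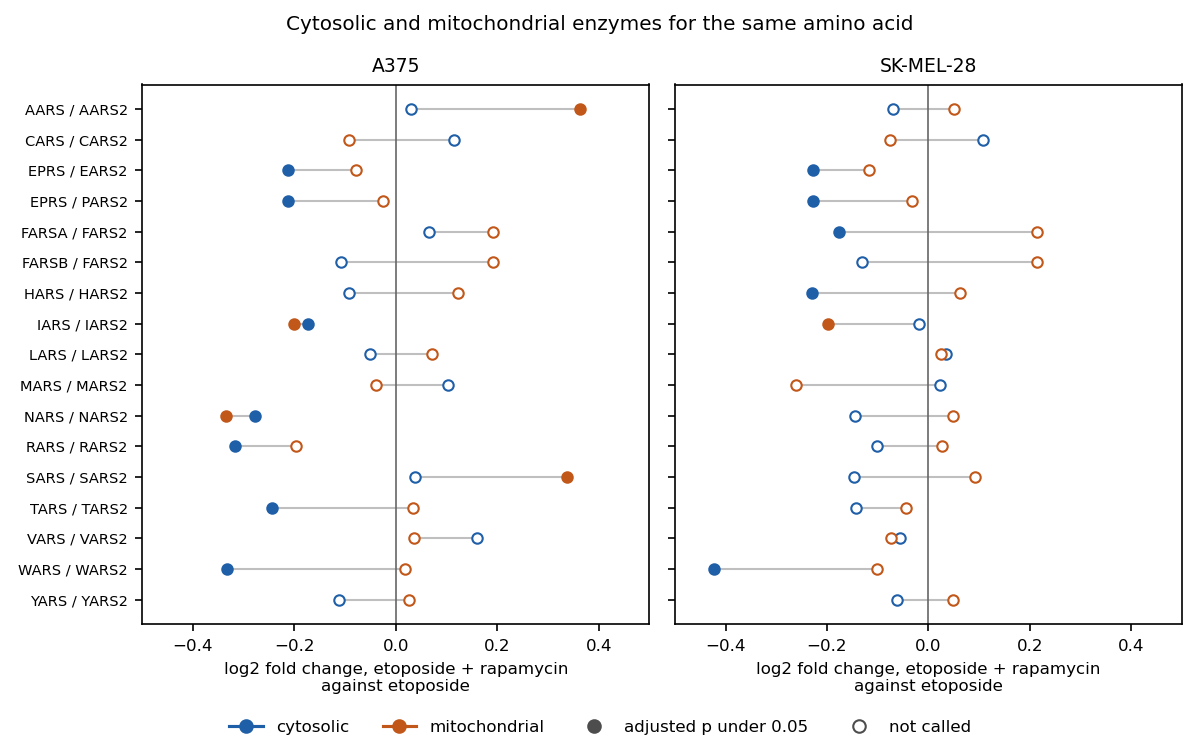
Log2 fold change with rapamycin (x axis) of the cytosolic (blue) and mitochondrial (orange) gene for the same amino acid, joined by a grey line, for 17 pairs in A375 (left) and SK-MEL-28 (right); filled points passed the test. In 12 of 17 pairs of each line the blue point lies to the left of the orange one.

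Summed over the 20 cytosolic genes, the level was 3170.8, 3191.1 and 3175.1 CPM in A375 with etoposide and 3069.5, 3078.9 and 3063.2 CPM with rapamycin added. In SK-MEL-28 it was 3611.0, 3545.0 and 3527.7 CPM with etoposide against 3387.2, 3425.6 and 3384.7 CPM with rapamycin added. The rapamycin libraries were lower without overlap in both lines. The 16 mitochondrial genes summed to 671.8, 674.7 and 664.9 CPM with etoposide against 658.7, 654.0 and 651.6 CPM with rapamycin in A375. In SK-MEL-28 they summed to 653.4, 652.5 and 658.4 against 613.3, 626.2 and 647.4 CPM, and in both lines the rapamycin libraries were lower without overlap. The ratio of the cytosolic to the mitochondrial sum was 4.74 ± 0.030 (SD, n = 3) with etoposide and 4.69 ± 0.026 with rapamycin in A375. The ratios of SK-MEL-28 were 5.44 ± 0.085 and 5.41 ± 0.157, and there the groups overlapped. Such sums are weighted by the abundant genes. Without IARS2, the other 15 mitochondrial genes summed to 484.8, 493.4 and 470.7 CPM against 495.7, 489.3 and 491.6 CPM in A375, and to 489.8, 500.5 and 502.4 against 476.7, 488.9 and 509.0 CPM in SK-MEL-28. The groups then overlapped in both lines, so the separation of the mitochondrial sums rested on that gene.

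Genes of the multisynthetase complex did not share 1 direction. Of its 8 synthetases (DARS, EPRS, IARS, KARS, LARS, MARS, QARS and RARS), A375 had 3 that fell and 1 that rose and SK-MEL-28 had 1 of each, with medians of -0.0964 and 0.0026. The called shares for the 8 were 50% (A375) and 25% (SK-MEL-28), against 28.1% and 19% of all genes. None of the 3 scaffold proteins passed the test in either line (AIMP1, with the highest CPM, -0.16 and 0.14). Of the 2 genes that serve both compartments, KARS did not pass in either line (0.087 and 0.078) and GARS passed only the test in SK-MEL-28 (-0.14 and -0.19).

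The 6 cytosolic genes with the ATF4 core in their windows also lay on both sides of 0. In A375 IARS, NARS and TARS fell, while AARS, CARS and MARS had log2 fold changes of 0.030, 0.11 and 0.10 without a call. In SK-MEL-28 none of the 6 was called, and they ran from -0.14 (NARS) to 0.11 (CARS). QARS and WARS, the cytosolic genes with the largest changes, had no match in their windows.

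ATF4 itself rose in both lines (log2 fold change 0.25, adjusted p = 0.001404 for A375; 0.31, adjusted p = 0.002569 for SK-MEL-28). Of 24 genes of the ATF4 list (ATF4, its kinases and amino acid response targets), 5 rose and 8 fell in A375, while SK-MEL-28 had 3 that rose and 4 that fell, with ATF3 higher and PSAT1, ALDH18A1, EIF2AK3 and SLC38A2 lower in both. The called shares of the list were 54.2% and 29.2%, against 28.1% and 19% of all genes. The shares that fell were 33.3% and 16.7%, against 13.8% and 10.1%. Those that rose were 20.8% and 12.5%, against 14.3% and 8.83%, and the list medians were 0.063 and 0.026. SLC38A2, an amino acid transporter, had 435, 419 and 433 CPM with etoposide and 311, 306 and 285 CPM with rapamycin in A375, a log2 fold change of -0.51 (SE 0.046, adjusted p = 8.9e-06). The transporter SLC7A5, the gene of the list with the highest CPM, did not pass (0.11 and 0.020). DDIT3, whose annotated gene overlaps MARS by 982 bases on the other strand, fell in A375 (-0.46, adjusted p = 0.001652) and differed between the lines in the test of the difference (0.69, adjusted p = 0.0118), whereas MARS did not pass in either line. Whether counting used strand is not given in the sources used here.

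Among genes that make, modify and move tRNA, some rose and some fell. Of 21 genes for tRNA maturation, modification and export, A375 had 3 that rose and 2 that fell, and SK-MEL-28 had 2 and 4, or 23.8% and 28.6% called, against 28.1% and 19% of all genes. XPOT, the exportin that carries tRNA out of the nucleus and the one with the highest CPM, had 209.9, 193 and 210.1 CPM with etoposide and 165, 160.5 and 148 CPM with rapamycin in A375, and 236, 213 and 218 against 195, 198 and 192 CPM in SK-MEL-28. The groups did not overlap in either line, and its log2 fold changes were -0.37 (SE 0.054, adjusted p = 0.0003196) and -0.20 (SE 0.053, adjusted p = 0.02068). POP1, a subunit of RNase P, which trims the 5′ end of tRNA, fell in both lines (-0.32 and -0.37), and the tRNA methyltransferase genes TRMT1 (0.24 and 0.26) and TRMT61A (0.33 and 0.33) rose in both. ELAC2, which trims the 3′ end, fell in SK-MEL-28 (-0.26, adjusted p = 0.004201).

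MAF1, the repressor of RNA polymerase III that mTORC1 is known to hold inactive, had 97.2, 106 and 104 CPM with etoposide and 125, 131 and 135 CPM with rapamycin in A375, and 98.0, 98.2 and 103 against 120.1, 117 and 119 CPM in SK-MEL-28. All rapamycin libraries were higher, and the log2 fold changes were 0.35 (SE 0.050, adjusted p = 0.0002834) and 0.25 (SE 0.049, adjusted p = 0.003507). Of the 12 genes of this list, MAF1 and the polymerase subunits, A375 had 2 that rose and 2 that fell, and SK-MEL-28 had 1 of each. The called shares, 33.3% and 16.7%, were near the 28.1% and 19% of all genes. The subunit gene POLR3G fell in both (-0.32 and -0.27), and POLR3D rose in A375 (0.29, adjusted p = 0.001215).

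Of 9 mitochondrial translation factors, 4 fell in A375 (GFM1, GFM2, MTRF1 and MTRF1L; 44.4%, against 13.8% of all genes), of which GFM2, a factor for ribosome recycling, had the smallest p (-0.35, adjusted p = 0.0005701), followed by the elongation factor GFM1 (-0.25, adjusted p = 0.001981). In SK-MEL-28 the recycling factor MRRF rose (0.40, adjusted p = 0.001991) and none fell. The called shares of the 9 were 44.4% (A375) and 11.1% (SK-MEL-28), against 28.1% and 19% of all genes. The share that rose in SK-MEL-28, 11.1%, was near the 8.83% of all genes. TUFM, with the highest CPM, did not pass in either line (0.060 and -0.022). Of 5 partners in mitochondrial tRNA charging (GATB, GATC, QRSL1, MTFMT and TRNT1) none passed in either line, GATC standing at -0.15 and -0.094. Against called shares of 28.1% and 19% of all genes, 5 genes are too few for a comparison. Of the genes for proofreading and peptidyl-tRNA release, PTRH2 fell (-0.23, adjusted p = 0.04183) in A375.

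Levels can be compared between genes only per length, here as CPM per kilobase of merged exons. FARSA was highest, at 103 ± 2.90 (SD, n = 3) in A375 Etoposide and 121 ± 4.83 in the SK-MEL-28 Etoposide group. QARS followed at 55.7 ± 1.83 and 59.9 ± 0.876, and RARS at 49.4 ± 1.59 and 55.2 ± 2.92. The lowest were NARS2 at 0.754 ± 0.038 and 0.755 ± 0.027, FARS2 at 1.23 ± 0.200 and 1.36 ± 0.041, and RARS2 at 1.45 ± 0.046 and 1.45 ± 0.055. FARS2 and RARS2 overlapped within their spread in A375. IARS2 was the highest of the mitochondrial genes, at 45.4 ± 1.56 in A375.

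FARSA had 245, 259 and 249 CPM with etoposide and 254, 250.1 and 281 CPM with rapamycin in A375, and 282, 303 and 302 against 266, 262 and 258 CPM in SK-MEL-28. In A375 the groups overlapped, and in SK-MEL-28 they did not. FARS2 had 5.40, 5.42 and 7.09 CPM with etoposide against 7.24, 6.32 and 6.80 CPM with rapamycin in A375, and 6.70, 6.34 and 6.68 against 8.03, 6.85 and 8.02 CPM in SK-MEL-28, with overlap in A375 and none in SK-MEL-28. RARS2 had 24.7, 26.4 and 25.5 CPM against 22.3, 22.6 and 21.7 CPM in A375, without overlap, and 26.5, 25.7 and 24.6 against 24.5, 25.02 and 28.8 CPM in SK-MEL-28, with overlap. Neither FARS2 nor RARS2 passed the test in either line.

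FARSA and FARSB encode the subunits of a single enzyme, yet FARSB stood at 3.2 ± 0.109 CPM per kilobase in A375 Etoposide. The class medians in that group were 23.2 for the cytosolic and 5.84 for the mitochondrial genes. With the length of the canonical transcript, an alternative added after the merged lengths were seen, they were 56.1 and 9.79, and over the mean of the 4 groups the highest genes were FARSA, QARS and HARS and the lowest PARS2, FARSB and FARS2. The order depended on the length used, also at the top: with canonical lengths QARS stood above FARSA in SK-MEL-28 Etoposide + Rapamycin, at 147 against 145 CPM per kilobase.

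**Figure D4:**
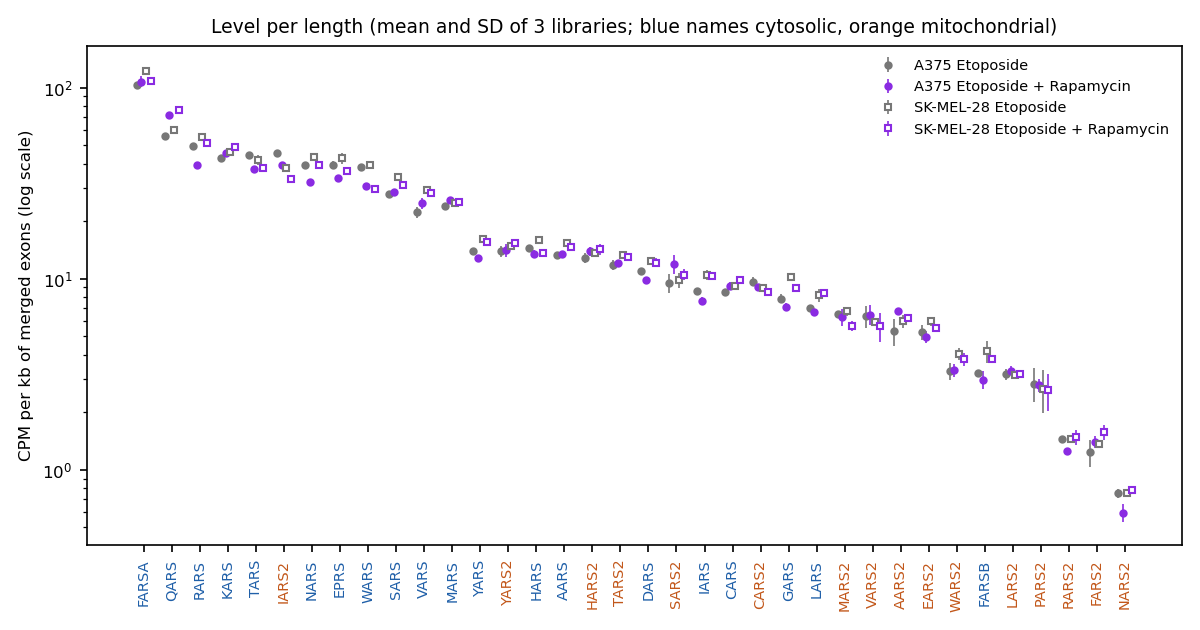
CPM per kilobase of merged exons (y axis, log scale) of the 36 genes (x axis, sorted by their mean; blue names cytosolic, orange mitochondrial), as mean and SD of 3 libraries in each of the 4 groups. FARSA and QARS are on the left and RARS2, FARS2 and NARS2 on the right, and IARS2 is the only orange name among the first 12.

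Under etoposide alone, SK-MEL-28 had higher levels than A375 in 13 of the 20 cytosolic genes and lower levels in 0, and the log2 difference was positive in 19 of 20. The called share with a higher level was 65%, against 15.1% of all 20101 genes. Of the mitochondrial genes 12.5% were higher (TARS2 and WARS2) and 6.2% lower (IARS2), against 15.1% and 16.7% of all genes, of which 31.8% were called in all. The medians were 0.169 over the cytosolic, 0.054 over the mitochondrial and -0.0045 over all genes. The intervals of all 36 genes lay within 1.5-fold.

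VARS, FARSB and GARS had the largest differences, and were picked after their values were seen. GARS, the glycyl-tRNA synthetase (chr7:30580533-30634033, plus strand), had 132, 133 and 145 CPM in A375 and 184, 177 and 168 CPM in SK-MEL-28, without overlap (log2 difference 0.37, SE 0.054, adjusted p = 4.175e-05). VARS had 133, 138 and 122 CPM in A375 and 164, 175 and 176 CPM in SK-MEL-28, also without overlap (0.39, SE 0.059, adjusted p = 6.483e-05). FARSB had 22.2, 20.8 and 21.9 CPM in A375 against 31.4, 28.9 and 24.3 CPM in SK-MEL-28 (0.38, SE 0.10, adjusted p = 0.004886). The other 10 called cytosolic genes (AARS, DARS, FARSA, HARS, IARS, LARS, NARS, RARS, SARS and YARS) ran from 0.13 to 0.28.

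IARS2 went the other way (-0.25, SE 0.043, adjusted p = 0.000196). WARS, which fell with rapamycin in both lines, did not pass the test between them (0.022, SE 0.044, adjusted p = 0.7528), and TARS was the 1 cytosolic gene with a negative value (-0.090, SE 0.049, adjusted p = 0.1847). The summed markers of other cell types given above were also lower in SK-MEL-28 here, and their part was not tested. This comparison sets 1 line against 1 line and uses the same etoposide libraries as the comparisons above. TARS2 was lost without A375 Etoposide replicate 1 or 3 or SK-MEL-28 Etoposide replicate 2 or 3, and WARS2 without A375 Etoposide replicate 1 or 2 or SK-MEL-28 Etoposide replicate 3. The count of mitochondrial genes called higher was 0 without SK-MEL-28 Etoposide replicate 3 and 1 without A375 Etoposide replicate 1 or 2 or SK-MEL-28 Etoposide replicate 2, and TARS was called lower without SK-MEL-28 Etoposide replicate 1 (adjusted p = 0.03609). Among the cytosolic calls, HARS was lost without any 1 of 7 libraries (A375 Etoposide + Rapamycin replicate 1 or 2, A375 Etoposide replicate 1 or 2, SK-MEL-28 Etoposide + Rapamycin replicate 3, SK-MEL-28 Etoposide replicate 2 or 3), DARS without A375 Etoposide replicate 2 or SK-MEL-28 Etoposide replicate 1, RARS without the latter and NARS without SK-MEL-28 Etoposide replicate 3.

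**Figure D5:**
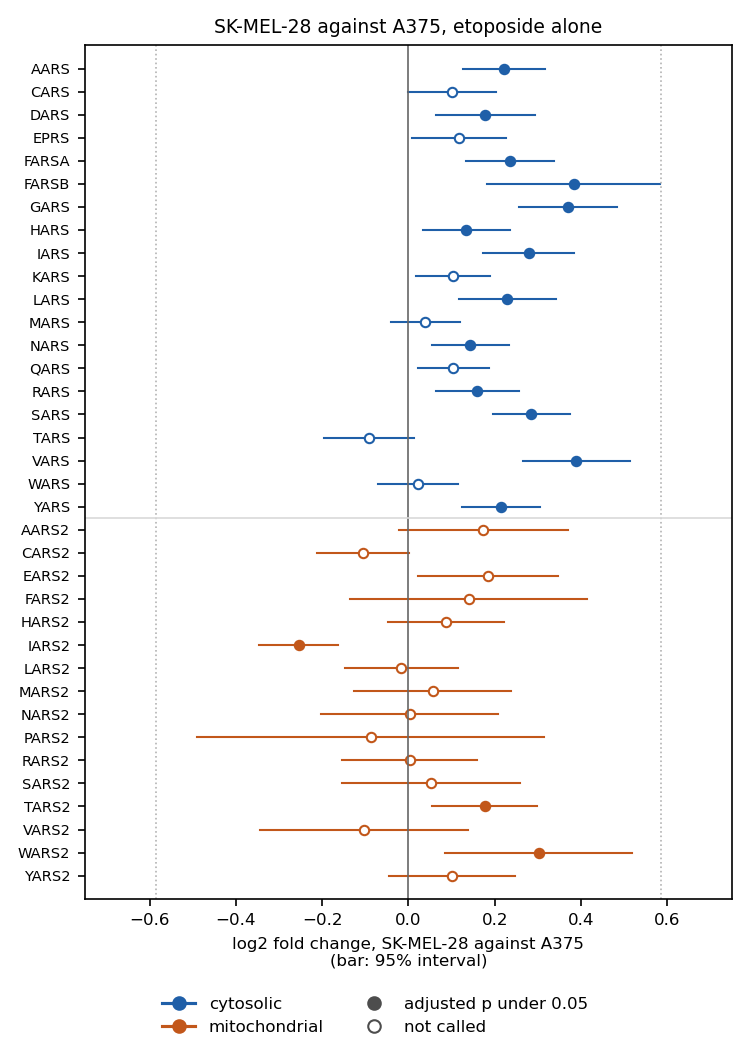
Log2 fold change of each synthetase gene in SK-MEL-28 against A375, both under etoposide alone (x axis; points, with bars for the 95% interval; filled points passed the test; dotted lines mark 1.5-fold). Of the 20 cytosolic genes above the grey line, 19 have points to the right of 0, whereas IARS2 lies to the left.

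Some of these genes share an assembled locus or bases with other genes. HARS2 shared a locus in the assembly with ZMAT2, whose mean count of 2156.8 exceeded its own 1527.4, SARS2 with FBXO17 (922.1 against 970.2) and VARS2 with GTF2H4 (333.1 against 1184.9), and how the assembly divided reads between such names was not tested. Of the 36 genes 21 overlapped an annotated gene on the other strand.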

How the data were processed

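PolyA-enriched RNA of A375 and SK-MEL-28 cells was sequenced by Illumina sequencing. The authors aligned reads to hg38 with HISAT 2.2.0, converted alignments with Samtools 1.3.1, assembled and quantified genes with StringTie 2.1.4 against genes of Ensembl release 90, and deposited 1 table of raw counts per gene and library, without normalization or pooling. How coverage became counts, and whether strand was used, is not given in the sources used here, so precision is taken from the spread between replicates. Of 58312 rows, 5 named no gene (0.000991% to 0.00529% of a library's counts) and were left out. Total counts were 28189501 to 32499337 per library.

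Counts were tested with edgeR 4.0.16 in R 4.3.3 (genes kept by filterByExpr at a minimum count of 10, TMM scaling, glmQLFit, glmQLFTest) and adjusted by Benjamini-Hochberg across the genes of a fit. The rapamycin effect was fitted in each cell line alone, and all 12 libraries were used for the difference of that effect and for the comparison of the lines. The authors' methods name DESeq2 with thresholds of 0.05 on the adjusted p and 1.5 on the fold change, and DESeq2 1.42.0 was run as an alternative. Standard errors were recovered by dividing the log2 fold change by the root of its F statistic, and intervals are 95%. Printed CPM were scaled by TMM over all 12 libraries, whereas fold changes come from each line's own fit. The fitting functions were tested on simulated counts. Positions and lengths came from GENCODE release 44 (GRCh38), with 18 genes matched by an older symbol, and promoter windows from RefSeq (GRCh38.p14).

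The genes, lists and rules were chosen with earlier results of these data known, so no p-value over a list is given. Values by library are given for the 3 called genes with the largest change in each direction, class and line, for genes called in the test of the difference, and for the 3 highest and 3 lowest per length. From each other list the 2 called genes with the smallest p and the most abundant gene are named, and some genes of the lists are not reported here. Genes outside this rule are TARS, IARS and EPRS by library in A375, GARS, VARS and FARSB in the comparison of the lines, DDIT3, MTRF1, MTRF1L and the further list genes called in both lines, which were chosen after their values were seen. Alternatives were DESeq2, RLE size factors, library totals, filters of 1 count in any and 10 counts in every library, 1 fit of all libraries, a fit of the 6 etoposide libraries, a replicate block, halved counts, rows of a name summed, a fold change threshold, each library left out in turn, GARS and KARS left out, other lengths and a shorter promoter window.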

Additional observations from a re-analysis of the deposited data

How the results depend on the processing

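No called fold change reversed under any alternative. For the rapamycin effect in A375, DESeq2 gave 2 cytosolic genes higher and 1 mitochondrial gene lower, and the filter of 1 count in any library gave 0 mitochondrial genes higher and 1 lower. Library totals gave 9 cytosolic and 3 mitochondrial genes lower there, with the median of all genes at -0.0502. In SK-MEL-28, DESeq2 gave 8 cytosolic genes lower, library totals 8 cytosolic and 2 mitochondrial genes lower, and 1 fit of all 12 libraries 2 mitochondrial genes lower. In the test of the difference, DESeq2 called 1 cytosolic gene higher and 2 lower, halved counts 1 higher, and RLE size factors, the filter of 10 counts in every library and rows of the same name summed 1 lower each. Between the lines under etoposide, the filter of 1 count and the fit of the 6 etoposide libraries gave 1 mitochondrial gene higher. With a change of 1.5-fold also needed, or tested against, every count was 0. The causes of these changes were not tested.

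Leaving out 1 library gave 1 to 2 cytosolic genes higher and 5 to 7 lower, and 0 to 2 mitochondrial genes higher and 1 to 2 lower, in A375; 1 to 1 and 2 to 4 cytosolic genes and 0 to 0 and 0 to 1 mitochondrial genes in SK-MEL-28; 0 to 1 and 0 to 1 cytosolic and 0 to 0 and 0 to 1 mitochondrial genes in the test of the difference; and 11 to 13 and 0 to 1 cytosolic and 0 to 2 and 1 to 1 mitochondrial genes between the lines. QARS and WARS passed under every alternative without a fold change threshold in both lines.

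Same-numbered libraries of the treatments did not deviate together (correlations of -0.079 to 0.012), so the replicate numbers were not taken to pair them. With the replicate number as a block, the counts for the rapamycin effect were unchanged, at 6 cytosolic genes lower in A375 and 5 in SK-MEL-28, and between the lines 15 cytosolic genes were higher.

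The median level of A375 with etoposide was 42.5 CPM per kilobase (longest transcript) and 56.1 (canonical transcript) for cytosolic genes, and 6.79 and 9.79 for mitochondrial genes. The motif stood in 12.5% of cytosolic and 3.19% of all promoters before the RefSeq start alone. Low genes were measured less precisely (SE 0.155 for PARS2 in A375), and a missing call there does not show that a gene did not change.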
